A study of Mus musculus with 6 samples.

Results

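Solute carriers are the membrane proteins, named Slc or Slco with a family number, that move ions, sugars, amino acids, vitamins, metals and drugs across the membranes of a cell or its organelles. The genes described here are the 102 solute carrier genes that could be read in 6 mouse kidney RNA libraries, out of 153 solute carrier genes with any readable exon and 9519 genes read in all. They were chosen by their symbol and by a minimum of 10 counts in at least 3 libraries. The difference between the groups was not part of this rule, but the rule was set with earlier results of these data known. Of the 153 genes, 42 did not reach this minimum and 9 were left out by name (Slc34a1, Slc13a1, Slc22a8, Slc22a13, Slc7a7, Slc7a11, Slc4a1, Slc4a9 and Slc26a4). The annotation holds 385 protein-coding genes with such a symbol, so familiar renal transporters such as Slc5a2, Slc12a1, Slc12a3 and Slc22a6 are not among the members and were not analysed here.

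The libraries came from kidneys of C57BL/6 mice at 21 days of age. The healthy-labelled group held 3 libraries with the diagnosis healthy and the sample titles control, and the ARF-labelled group held 3 with the diagnosis acute renal failure (ARF) and the titles treat. Both groups shared strain, age, tissue and kit, and no genotype or agent is named for either. In the file headers the run identifiers are consecutive within each group with a gap between the groups, so diagnosis and set of runs cannot be told apart. How renal failure arose is not in the labels, and neither is the number of animals behind each group, so the spread between libraries may be technical, and p-values measure only that spread.

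In the kidney, solute carriers are sorted by segment. Cells of the proximal tubule reclaim sodium, glucose, amino acids, phosphate and bicarbonate from the filtrate and secrete organic anions and cations, each with its own carriers on the brush border and on the blood side. The loop of Henle, distal tubule and collecting duct use other carriers for chloride, bicarbonate and urea, and every cell holds carriers of the mitochondrial inner membrane, the Golgi and the lysosome. A fall of a carrier transcript in whole tissue can come from fewer cells of a type or from less RNA per cell, which cannot be told apart here.

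Most row names in the deposited tables do not belong to the sequence their intervals cover, so a gene was named from the GRCm38 exons beneath the counted intervals. Most members were therefore read over only part of their exons. The exon bases read ran from 31 to 6676 with a median of 394, and 93 of the 102 members were read over at least 100 bases. Levels of different members are for this reason not compared, and each member is compared between libraries over its own bases. In the median member 8.63% of the bases of its rows lay on its exons and 78.8% lay within its gene body. A total of 7 members were read through all their exon bases, with at least 80.5% of the row on those exons (Slc7a13, Slc25a13, Slc25a51, Slc26a7, Slc35a1, Slc44a1 and Slc46a2). At the other end, 19 members were read through untranslated exon bases only. Strand was ignored in the counting, so reads from an antisense neighbour are included. Levels are given as normalized CPM, the CPM (counts per 1000000) of a library total scaled by its TMM factor, and a mean is followed by its SD (n = 3 libraries per group). Differences are log2 fold changes, ARF-labelled minus healthy-labelled, from edgeR's quasi-likelihood test, called at a Benjamini-Hochberg adjusted p under 0.05 over the 5246 genes tested.

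Library totals ran from 2873370 to 6191479 counts, with the 2 smallest in the healthy-labelled group. The libraries carried kidney markers throughout, and liver and skeletal muscle markers summed to less than 2 normalized CPM in each library. Several marker groups moved with the diagnosis. The 5 tubular injury genes read were all lower in the ARF-labelled libraries, and their summed level was 10826 to 17602 normalized CPM in the healthy-labelled and 1891 to 2550 in the ARF-labelled libraries. The 2 neutrophil genes were also lower (50.1 to 165 against 2.95 to 6.46), as were the 4 macrophage genes (46.4 to 83.3 against 19.4 to 25.2). The 4 principal cell genes and the 4 intercalated cell genes were all higher. The groups are thus named here by their labels only.

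All 102 members were tested, and 25 rose, 30 fell and 47 did not pass the test in the ARF-labelled libraries. The called share was 53.9%, beside 50.0% of all genes tested. Members that rose made up 24.5%, beside 25.1% of all genes, and members that fell made up 29.4%, beside 24.9%. Slc19a2 and Slc46a2 met the count minimum through the ARF-labelled group alone, where they were high, and without them 23 members rose. Slc22a19, still among the 23, had 14, 0 and 9 counts in the healthy-labelled libraries. It too met the minimum only with the ARF-labelled group, where it was high. Counting calls of any size over all solute carriers thus gave shares near those of the transcriptome. Called rises of at least 2-fold were seen in 15 of the 102 members, beside 11.4% of all genes tested. The 15 include Slc19a2, Slc22a19 and Slc46a2, which met the count minimum only with the ARF-labelled group, so this share is raised by the filter. Called falls of at least 2-fold were seen in 22 of the 102 members, beside 13.5% of all genes tested. The median log2 fold change of the members was -0.07, beside 0.01 for all genes, and the median of its absolute size was 0.66, beside 0.53. Differences ran from -2.81 for Slc16a3 to 2.96 for Slc22a19. The libraries of the groups did not overlap in 64 members (62.7%), beside 60.2% of all genes, and those 64 include all 55 called members. With scaling by library total alone, which moves the median of all genes to 0.19, 54.2% of the called members were higher, against 45.5% with TMM (63.3% against 50.3% of all called genes).

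**Figure D1:**
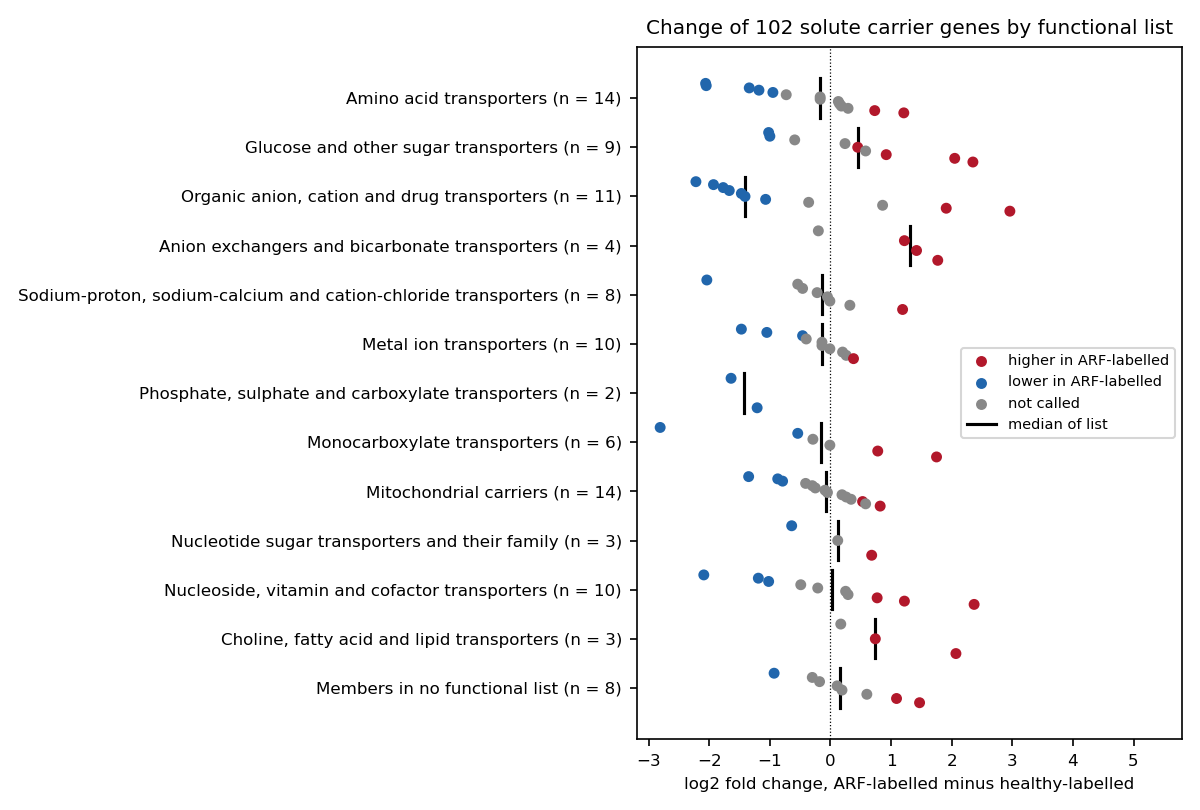
Each point is 1 of the 102 solute carrier genes, placed by its log2 fold change between 3 ARF-labelled and 3 healthy-labelled libraries (x axis) and by the substrate list it belongs to (y axis); colour gives the call at adjusted p under 0.05 and the black line the median of the list. Organic anion, cation and drug transporters lie mostly to the left (7 of 11 lower), while 3 of the 4 anion exchangers and bicarbonate transporters lie to the right. Over all genes tested 24.9% were lower and 25.1% higher.

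Promoter sequence was looked up for members that changed, beside their differences. RefSeq promoter windows (GRCm38.p6, from 250 bases before the transcription start to 50 after it) were found for 74 of the 102 members. The 180 bases before the start are printed below, 5′ to 3′ on the gene's own strand, for 3 called members that fell and 3 that rose. Each has a single window whose start lies within 100 bases of the gene's annotated 5′ end. Their printed bases touch no annotated exon. They were taken by size of difference from members that met these rules. Some members were also left out by their place in the genome, so those printed need not be the largest falls and rises under these rules. Capitals mark ACGTG or its reverse complement, the core bound by hypoxia-inducible factors, which is also part of the E-box CACGTG. The members that fell are Slc19a3 (chr1:83038449-83038628, minus strand), Slc9a3 (chr13:74121233-74121412, plus strand) and Slco1a1 (chr6:141946963-141947142, minus strand).
Slc19a3: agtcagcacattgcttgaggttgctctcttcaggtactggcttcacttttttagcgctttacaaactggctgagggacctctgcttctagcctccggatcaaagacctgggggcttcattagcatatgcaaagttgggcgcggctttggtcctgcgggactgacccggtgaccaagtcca
Slc9a3: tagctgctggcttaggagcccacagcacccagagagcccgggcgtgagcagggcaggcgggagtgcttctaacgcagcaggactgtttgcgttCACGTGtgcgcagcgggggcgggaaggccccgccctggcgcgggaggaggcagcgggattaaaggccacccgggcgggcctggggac
Slco1a1: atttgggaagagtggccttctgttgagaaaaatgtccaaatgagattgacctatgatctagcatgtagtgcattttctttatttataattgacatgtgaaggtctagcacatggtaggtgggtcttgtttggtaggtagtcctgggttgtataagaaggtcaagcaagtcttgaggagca
The members that rose are Slc22a19 (chr19:7711311-7711490, minus strand), Slc46a2 (chr4:59915057-59915236, minus strand) and Slc19a2 (chr1:164248866-164249045, plus strand), whose call rests on few counts. All 3 met the count minimum of members only with the ARF-labelled group.
Slc22a19: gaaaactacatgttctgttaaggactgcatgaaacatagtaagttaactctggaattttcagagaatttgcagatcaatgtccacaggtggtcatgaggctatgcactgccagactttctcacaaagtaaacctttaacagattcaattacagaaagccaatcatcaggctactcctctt
Slc46a2: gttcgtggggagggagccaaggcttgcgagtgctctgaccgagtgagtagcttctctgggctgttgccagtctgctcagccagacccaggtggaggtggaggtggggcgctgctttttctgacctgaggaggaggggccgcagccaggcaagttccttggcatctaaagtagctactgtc
Slc19a2: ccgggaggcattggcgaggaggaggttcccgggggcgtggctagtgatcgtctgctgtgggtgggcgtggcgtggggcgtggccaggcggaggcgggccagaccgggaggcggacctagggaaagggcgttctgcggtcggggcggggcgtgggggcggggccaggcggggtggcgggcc

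In Slc9a3 ACGTG was part of a full E-box that began 87 bases before the start, in a window of 69% GC. Slc19a3 held ACGTG 188 bases before the start, outside the stretch printed. The windows of Slco1a1 and of the 3 risers held no ACGTG on either strand. Over all windows, including those at starts inside a gene, ACGTG on either strand was present in 12 of 30 windows of members that fell (40%), in 16 of 39 of members not called (41%) and in 1 of 24 of members that rose (4.17%), beside 19.6% of all 32851 windows in the RefSeq table. Median GC was 56.7%, 60.7% and 62.7% in these sets, and 52.7% in the whole table. The share in members that fell was thus no higher than in members not called. In all, 10 short motifs were searched on both strands after the members' differences were known. The others were the ATF4 element TGATGNAA, the HNF1 half-site GTTAAT, a short and a long HNF4 site (CAAAGT, itself part of the long one), a short and a long forkhead site (TGTTTA, likewise), the AP-1 site TGANTCA, the antioxidant response core TGANNNNGC and the palindromic glucocorticoid receptor site. The antioxidant response core was present in 56.7% of the windows of members that fell, 41% of those not called and 37.5% of those that rose, beside 41.3% of the table. In the same order, CAAAGT was in 16.7%, 15.4% and 4.17%, beside 14.4%, and TGTTTA in 13.3%, 12.8% and 16.7%, beside 13.4%. Each remaining motif was found in at most 2 windows of any of these sets. The windows came from 23 genes that fell, 33 not called and 18 that rose. These are matches of letters in a window, with no measurement of binding.

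Carriers of organic anions, cations and drugs, which take up and secrete drugs, toxins, hormones and prostaglandins, had the lowest median of the substrate lists with at least 3 members, at -1.41. Of the 11 members 7 fell, 2 rose and 2 did not pass. Over all genes tested 24.9% fell and 25.1% rose, and the counts of each list below are to be read beside these shares. With only rows that had at least 10% of their bases on the exons, a setting added after the data were seen, 3 of the 6 members then tested fell and 2 rose. Slco2a1, the prostaglandin transporter, stood at 56.6, 104 and 89.2 normalized CPM in the healthy-labelled libraries and at 22.5, 16.8 and 14.0 in the ARF-labelled libraries. Each ARF-labelled library was below each healthy-labelled library (log2 fold change -2.22, SE 0.26, adjusted p = 0.000222). Slco2a1 lies on chromosome 9 from 102988712 to 103096002 (GRCm38) and was read over 663 bases of untranslated exon, with 36.4% of the row within the gene body. Of 5 endothelial markers read, 3 were also lower, and their summed level went from 192 to 363 normalized CPM in the healthy-labelled to 131 to 150 in the ARF-labelled libraries; their part in the fall of Slco2a1 was not tested.

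Transcripts of a carrier for each step of renal organic cation secretion fell. Slc22a2, the uptake carrier on the blood side of proximal tubule cells (chromosome 17, 12584132 to 12628488), stood at 92.7, 39.6 and 83.9 normalized CPM in the healthy-labelled libraries and at 22.3, 23.1 and 18.5 in the ARF-labelled libraries. It fell by 1.77 on the log2 scale (SE 0.29, adjusted p = 0.00125). Slc22a2 was read over only 107 coding bases, which made up 2.88% of its row. Slc47a1, the proton-coupled exporter of the brush border (chromosome 11, 61343401 to 61378345), was at 858, 544 and 946 against 335, 202 and 200 normalized CPM. It fell by 1.67 (SE 0.26, adjusted p = 0.00107), read over 1201 exon bases that made up 20.5% of its rows. In both genes the second healthy-labelled library was the lowest of its group and still above every ARF-labelled library.

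Slco1a1, an organic anion carrier of the brush border, had 176, 61.8 and 123 normalized CPM in the healthy-labelled and 42.7, 31.3 and 21.3 in the ARF-labelled libraries. It fell by 1.93 (SE 0.38, adjusted p = 0.00312) without overlap, read over only 97 coding bases that made up 3.96% of its row. The neighbouring paralog Slco1a6 fell by 1.07, and reads of near-identical stretches could be split between the pair. Slc22a4, a carrier of ergothioneine, fell by 1.47, read over only 91 coding bases that made up 1.46% of its row. The adjacent carnitine transporter Slc22a21 fell by 1.41, from 70 counts over the healthy-labelled to 40 over the ARF-labelled libraries. These related genes carry the same doubt about shared reads. Slc22a23, which has no settled substrate, did not pass (-0.36, adjusted p = 0.0587).

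The carriers of this list that rose were Slc22a19 and Slco4a1. Slc22a19, an organic anion carrier of the proximal tubule (chromosome 19, 7673061 to 7711310), had 2.64, 0 and 2.64 normalized CPM in the healthy-labelled libraries and 18.9, 17.9 and 9.01 in the ARF-labelled libraries. It had the highest log2 fold change of all members (2.96, SE 0.59, adjusted p = 0.00341), on 23 and 273 counts in all, and close relatives lie beside it in the genome. Slc22a19 met the count minimum only with the ARF-labelled group, where it was high. Slco4a1, a carrier of thyroid hormone and other organic anions (chromosome 2, 180456245 to 180474867), stood at 64.5, 58.2 and 55.2 against 234, 190 and 244 normalized CPM. The libraries of each group lay close together and far from the other group (log2 fold change 1.91, SE 0.13, adjusted p = 2.04e-05). Slc22a7, an organic anion carrier, had 64.3, 18.5 and 29.6 against 82.8, 66.5 and 60.1 normalized CPM and did not pass (0.86, adjusted p = 0.0863). The first healthy-labelled library overlapped the other group, and without it the difference was 1.51 with an adjusted p of 0.00214; it also passed with DESeq2 (0.88, adjusted p = 0.0371).

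**Figure D2:**
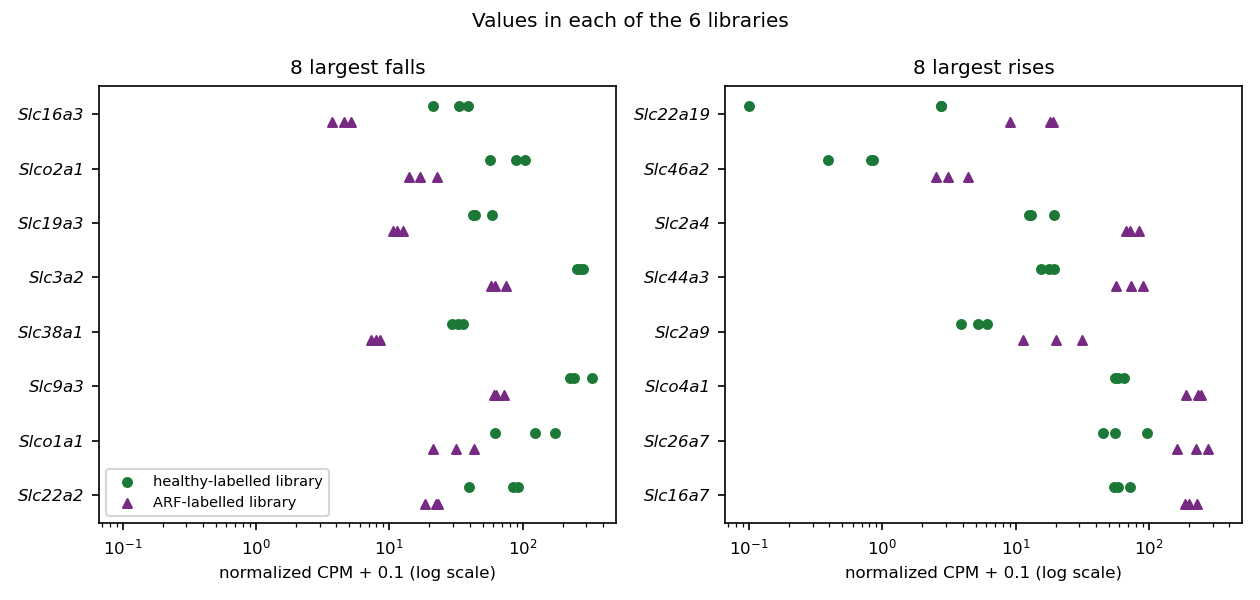
Normalized CPM plus 0.1 on a log scale (x axis) in each of the 6 libraries for the 8 members with the largest falls (left) and the 8 with the largest rises (right), with circles for healthy-labelled and triangles for ARF-labelled libraries. No circle overlaps the range of the triangles of the same gene, and the second healthy-labelled library of Slc22a19 is at 0.

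Amino acid transporters were split: of 14 members 5 fell, 2 rose and 7 did not pass, with a median of -0.17. Slc3a2, the heavy chain that brings several amino acid exchangers to the cell surface (chromosome 19, 8706882 to 8723369), stood at 257, 270 and 282 normalized CPM in the healthy-labelled and at 58.0, 61.7 and 74.7 in the ARF-labelled libraries. It had the lowest adjusted p of all members (log2 fold change -2.06, SE 0.12, adjusted p = 1.13e-05) and was read over 311 coding bases in a row wholly within the gene. Slc38a1, a sodium-coupled carrier of glutamine and other neutral amino acids (chromosome 15, 96571418 to 96642913), stood at 35.4, 32.4 and 29.3 against 7.20, 7.82 and 8.41 normalized CPM. It fell by 2.05 (SE 0.16, adjusted p = 3.44e-05), with little spread within either group. A list of amino acid transporters induced through ATF4 when amino acids are scarce holds 12 annotated genes, of which only 5 were members. Slc3a2 and Slc38a1 are the 2 of these 5 members that fell, and none of the 5 rose. The other 3, Slc1a3, Slc38a7 and Slc7a6, had differences of -0.17, 0.15 and 0.29 and did not pass, although Slc7a6 passed with scaling by library total alone (0.46, adjusted p = 0.0128).

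Slc7a13, an aspartate, glutamate and cystine transporter of the proximal straight tubule (chromosome 4, 19818725 to 19842218), is among the members read in full. It had 1374, 550 and 710 normalized CPM in the healthy-labelled and 405, 406 and 227 in the ARF-labelled libraries. The first healthy-labelled library stood well above the others, and the fall was -1.34 with all libraries (SE 0.35, adjusted p = 0.0126). Slc7a8, an exchanger of neutral amino acids on the blood side of proximal cells, fell by 1.18 (102, 159 and 208 against 62.2, 72.9 and 70.9 normalized CPM). Slc6a20b, a proline transporter, fell by 0.95, while its paralog Slc6a20a did not pass (0.13, adjusted p = 0.778); the pair share sequence, so reads could be split between them. Slc6a18, a glycine and neutral amino acid carrier of the brush border, was at 264 ± 65.7 and 235 ± 25.5 normalized CPM and did not pass (-0.17, adjusted p = 0.468).

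The amino acid carriers that rose were Slc43a2 and Slc38a9. Slc43a2, a facilitative carrier of branched-chain amino acids and phenylalanine (chromosome 11, 75531694 to 75577575), stood at 110, 172 and 160 against 307, 332 and 380 normalized CPM (log2 fold change 1.21, SE 0.18, adjusted p = 0.000688). Slc38a9, the lysosomal arginine sensor, stood at 14.2 ± 2.97 and 23.1 ± 3.41 normalized CPM (0.73, adjusted p = 0.0180). Its call was lost without the first healthy-labelled library (adjusted p = 0.0590) or the third ARF-labelled one (0.0608). Slc6a15, Slc38a10 and the members named above made up the 7 that did not pass. Slc6a15, a neutral amino acid carrier, had 20.2 normalized CPM in the first ARF-labelled library and 7.47 and 7.06 in the others, against 13.8 to 23.6 in the healthy-labelled libraries. Without that library it passed, at -1.38 (adjusted p = 0.00678), against -0.73 with it.

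Among 9 glucose and other sugar transporters 4 rose, 2 fell and 3 did not pass, with a median of 0.45. Slc2a4, the insulin-regulated glucose transporter of muscle and fat (chromosome 11, 69942539 to 69948188), had 12.4, 19.3 and 12.9 normalized CPM in the healthy-labelled and 67.6, 72.1 and 84.4 in the ARF-labelled libraries. Its rise of 2.35 (SE 0.19, adjusted p = 3.99e-05) was 5.10-fold. Of 6 skeletal muscle markers 3 were read, and they were near 0 in every library. Of 5 adipocyte markers 2 were read: Lep was lower and Cidec did not pass in the ARF-labelled libraries (summed level 37.7 to 364 against 22.3 to 42.8 normalized CPM). The part of muscle or fat in the rise of Slc2a4 was not tested. Slc2a9, a urate transporter (chromosome 5, 38349273 to 38503143), had 6.03, 5.09 and 3.81 against 11.3, 20.0 and 31.4 normalized CPM (2.05, SE 0.40, adjusted p = 0.00303). The ARF-labelled libraries spread widely and all lay above the other group. Slc45a3 rose by 0.92 and Slc37a3 by 0.45, the latter without a call when the third healthy-labelled library was left out (adjusted p = 0.0512).

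Slc5a1, the sodium-glucose cotransporter of the late proximal tubule (chromosome 5, 33104219 to 33162870), had 18.7, 16.4 and 16.7 against 9.60, 7.29 and 8.71 normalized CPM. It fell by 1.02 (SE 0.19, adjusted p = 0.00285), read over 108 coding bases that made up 0.917% of the row. Slc5a9, a sodium-coupled mannose transporter, fell by 1.00 and lost its call without the first healthy-labelled library (adjusted p = 0.0504). Slc2a12, Slc37a1 and Slc45a4 did not pass, with differences of 0.24, -0.59 and 0.58. The 2 phosphate, sulphate and carboxylate transporters among the members both fell. Slc17a1, an organic anion and phosphate carrier of the brush border (chromosome 13, 23867750 to 23895730), had 588, 328 and 581 against 180, 157 and 142 normalized CPM (-1.64, SE 0.22, adjusted p = 0.000481). Slc20a2, a sodium-phosphate cotransporter made in most tissues, was at 160, 145 and 143 against 60.9, 71.7 and 61.0 normalized CPM (-1.21, SE 0.11, adjusted p = 7.4e-05).

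Among 8 sodium-proton, sodium-calcium and cation-chloride transporters 1 fell, 1 rose and 6 did not pass. The one that fell was Slc9a3, the sodium-proton exchanger of the brush border through which most proximal sodium and bicarbonate is reclaimed (chromosome 13, 74121457 to 74169442). It stood at 243, 228 and 332 normalized CPM in the healthy-labelled and at 72.0, 62.7 and 60.8 in the ARF-labelled libraries. The groups lay far apart (log2 fold change -2.04, SE 0.16, adjusted p = 3.66e-05), and 53.8% of the row lay on its exons. Slc9a7, an exchanger of the trans-Golgi network, rose by 1.19 (18.7 ± 4.66 against 42.5 ± 2.97 normalized CPM). Slc9a4, Slc9a8, Slc12a2, Slc12a7, Slc12a8 and Slc24a2 did not pass, with differences between -0.54 and 0.32. Slc12a2, the sodium-potassium-chloride cotransporter of the blood side, was at 125 ± 47.2 and 122 ± 7.54 normalized CPM (-0.05, SE 0.23, adjusted p = 0.880).

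Of 4 anion exchangers and bicarbonate transporters 3 rose and none fell. Slc26a7, a chloride-bicarbonate exchanger of acid-secreting intercalated cells in the outer medulla (chromosome 4, 14502430 to 14621805), was read through all 5165 exon bases. It stood at 45.1, 96.3 and 55.7 normalized CPM in the healthy-labelled and at 279, 225 and 161 in the ARF-labelled libraries, a rise of 1.77 (SE 0.30, adjusted p = 0.00145). Slc26a2, a sulphate transporter, was at 115, 117 and 107 against 277, 271 and 246 normalized CPM (1.22, SE 0.10, adjusted p = 4.65e-05). Slc4a5, an electrogenic sodium-bicarbonate cotransporter, rose by 1.42 (SE 0.37, adjusted p = 0.0118) from 6.72 ± 3.83 to 17.1 ± 2.23 normalized CPM. With only rows that had at least 10% of their bases on the exons, Slc4a5 had 1.03 and an adjusted p of 0.0602. Slc4a4, the bicarbonate exit carrier of the proximal tubule, did not pass (-0.20, SE 0.46) and was read at 4.22 ± 1.39 and 3.53 ± 1.76 normalized CPM over 219 untranslated bases.

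Read by nephron segment, the members of the proximal tubule list divided as follows: 13 of 20 fell, 1 rose (Slc22a19) and 6 did not pass, with a median of -1.04. With rows that had at least 10% of their bases on the exons, 6 of the 12 members then tested fell and 1 rose. The share that fell stands beside 24.9% of all genes tested. Beyond the carriers above, the members that fell included Slc25a21, a mitochondrial carrier of oxoadipate, and Slc6a13 (-0.93, SE 0.20). Slc16a9, Slc22a7, Slc23a1, Slc25a10, Slc4a4 and Slc6a18 were the 6 that did not pass. Proximal tubule markers that are not solute carriers were divided. Of 6 read, Ass1, Cyp2e1 and Gatm were lower, Keg1 was higher and Lrp2 and Hnf4a did not pass, and their summed level went from 5986 to 9867 to 3324 to 4557 normalized CPM. The part of cell number in the list's falls was not tested.

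Of 9 members in the list of the loop of Henle, distal tubule and collecting duct 4 rose, none fell and 5 did not pass, with a median of 0.60. With the 10% minimum on exon bases 3 of these members were tested and 2 rose. The share that rose stands beside 25.1% of all genes. Slc14a2, the urea transporter gene of the inner medullary collecting duct and thin limb, had 28.7, 23.6 and 25.8 normalized CPM in the healthy-labelled and 79.9, 68.8 and 69.1 in the ARF-labelled libraries (1.47, SE 0.13, adjusted p = 6.66e-05). Of the bases of its rows 3% lay on its exons and 68.9% within the gene body. The neighbouring gene Slc14a1, the urea transporter of red cells and descending vasa recta, did not pass (0.60, adjusted p = 0.204). Slc14a1 had only 15.5% of its row within the gene body. Its first healthy-labelled library, at 10.9 normalized CPM, overlapped the other group, and without it the difference was 1.23 (adjusted p = 0.0117). Besides Slc14a2 the risers were Slc26a7, Slc2a9 and the pyruvate and lactate carrier Slc16a7. Markers of the same segments did not all move with them. The 4 principal cell genes summed to 3569 to 4380 normalized CPM in the healthy-labelled and 8826 to 10850 in the ARF-labelled libraries, and the 4 intercalated cell genes to 675 to 800 and 2451 to 2913, all 8 higher. Of 3 distal convoluted and connecting tubule genes Calb1 was higher and Trpm6 and Trpv5 lower (summed level 881 to 2105 against 3229 to 5859), and of 3 thick ascending limb genes Kcnj1 was higher, Ptger3 lower and Egf did not pass (472 to 638 against 523 to 753). Their part in the rises was not tested. Slc6a6, the taurine carrier and the third member of the osmolyte list beside Slc14a1 and Slc14a2, did not pass (0.11, adjusted p = 0.564).

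**Figure D3:**
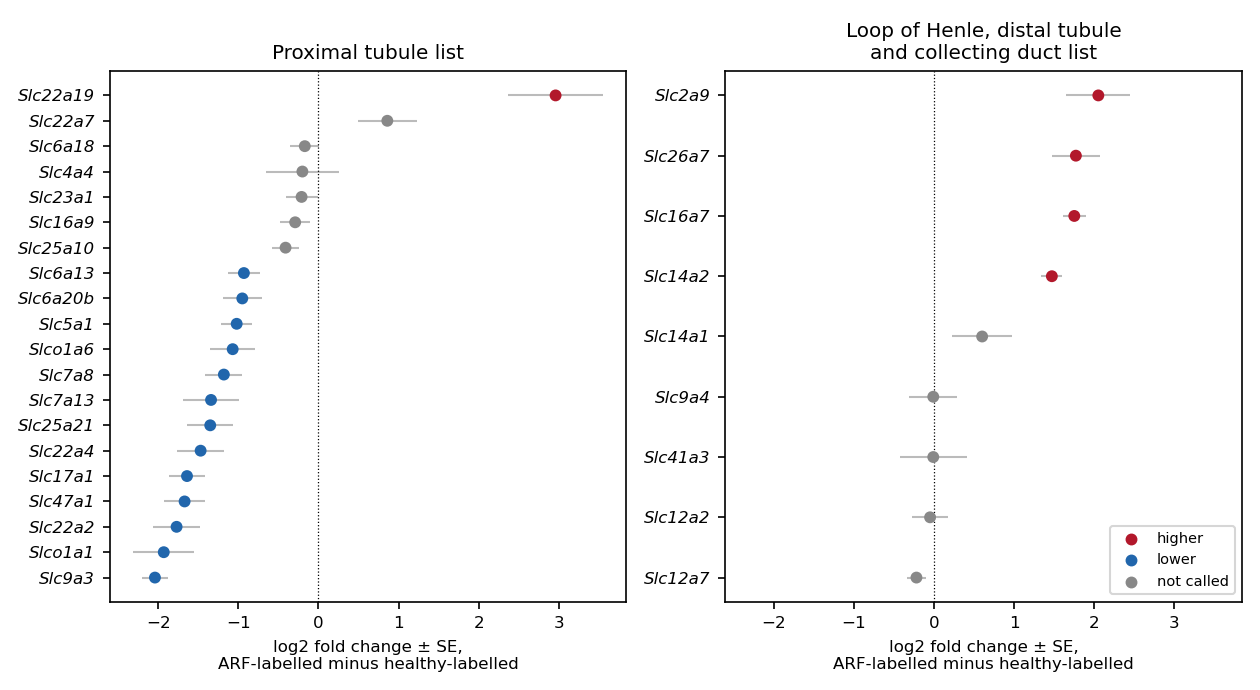
Log2 fold change with its SE (x axis) for the 20 members of the proximal tubule list (left) and the 9 of the loop of Henle, distal tubule and collecting duct list (right), coloured by call. In the left panel 13 genes lie below 0 with a call and Slc22a19 lies at 2.96; in the right panel 4 genes lie above 0 with a call and none below.

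Monocarboxylate transporters, which carry lactate, pyruvate and related acids, went both ways: 2 of 6 rose, 2 fell and 2 did not pass. Slc16a3, the lactate exporter of glycolytic cells and a known target of hypoxia-inducible factors (chromosome 11, 120948480 to 120960868), had 21.3, 38.9 and 33.2 normalized CPM in the healthy-labelled and 3.60, 5.04 and 4.51 in the ARF-labelled libraries. This was the lowest log2 fold change of all members, -2.81 (SE 0.27, adjusted p = 8.59e-05), or 6.99-fold lower. It was read over 1493 untranslated exon bases, with 38.3% of the row within the gene body, and it is the only member on the list of hypoxia and glycolysis transporters. The neutrophil and macrophage markers given above fell in the same libraries, and so did the tubular injury genes; their part in the fall of Slc16a3 was not tested. Slc16a7, which takes up pyruvate and lactate with high affinity (chromosome 10, 125219270 to 125389465), moved the other way. It had 54.5, 71.3 and 58.4 against 200, 187 and 229 normalized CPM (1.75, SE 0.14, adjusted p = 3.44e-05), read over 2648 untranslated bases with 18.5% of the row within the gene. Slc16a5 rose by 0.78 (190 ± 27.4 against 325 ± 14.2 normalized CPM). Slc16a14 fell by 0.54 (adjusted p = 0.0375) and lost its call without either of 2 healthy-labelled or 2 ARF-labelled libraries, where the adjusted p reached 0.129. Slc16a6 and Slc16a9, a carnitine and creatine carrier, did not pass (-0.01 and -0.29).

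Of 10 nucleoside, vitamin and cofactor transporters 3 rose, 3 fell and 4 did not pass, and the thiamine transporters parted. Slc19a3, the high-affinity thiamine carrier (chromosome 1, 83012523 to 83038448), had 59.2, 44.0 and 42.5 normalized CPM in the healthy-labelled and 11.3, 12.5 and 10.5 in the ARF-labelled libraries. It fell by 2.09 (SE 0.17, adjusted p = 4.55e-05), read over 682 coding bases in a row wholly within the gene. Slc19a2, the other thiamine carrier, was called higher (1.22, SE 0.40, adjusted p = 0.0341) on 14 and 52 counts, and reached the count minimum in the ARF-labelled group only. The Slc19a2 call was lost with DESeq2 (adjusted p = 0.137) and without any of 5 libraries (0.0672 to 0.102). Slc46a2, known from thymic stroma, also reached the minimum in the ARF-labelled group only, with 7 and 59 counts. It was read through all its exons (2.37, SE 0.49, adjusted p = 0.00419). Slc46a3, a lysosomal carrier of the same family, fell by 1.19 (29.5 ± 7.78 against 12.9 ± 0.180 normalized CPM), with 24.7% of its row in the gene body. The proton-coupled folate transporter Slc46a1 did not pass (0.25).

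The ascorbate transporter Slc23a2, made in many tissues, fell by 1.02 (SE 0.25, adjusted p = 0.00859), while the epithelial ascorbate transporter Slc23a1 did not pass (-0.21, adjusted p = 0.426). Slc5a6, the sodium-dependent carrier of biotin and pantothenate, rose by 0.77 from 9.72 ± 0.874 to 16.6 ± 1.00 normalized CPM. For Slc5a6 6.45% of the row lay in the gene body, so most of the counted bases lay outside the gene. The nucleoside carrier Slc28a1 and the riboflavin carrier Slc52a2 did not pass (-0.49 and 0.29).

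Of 10 metal ion transporters 3 fell, 1 rose and 6 did not pass, beside 24.9% lower and 25.1% higher over all genes tested. Slc39a14, a zinc and iron importer (chromosome 14, 70303469 to 70351425), had 71.3, 89.1 and 83.6 against 35.5, 25.5 and 27.0 normalized CPM (-1.47, SE 0.16, adjusted p = 0.000176). Slc41a2, a magnesium transporter (chromosome 10, 83230848 to 83337882), was at 226, 216 and 236 against 124, 92.4 and 111 normalized CPM (-1.05, SE 0.13, adjusted p = 0.000256). Both genes had all healthy-labelled libraries above all ARF-labelled ones by a wide margin. The Golgi zinc carrier Slc30a7 fell by 0.46 and lost its call without the first ARF-labelled library (adjusted p = 0.0541). The zinc carrier Slc39a9 rose by 0.38 and lost its call without the first or the third healthy-labelled library (adjusted p = 0.0635 for the third). The iron carrier Slc11a2, the copper importer Slc31a1, the zinc carriers Slc30a5 and Slc39a3, and Slc41a1 and Slc41a3 of the magnesium family had differences between -0.40 and 0.26 and did not pass.

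Mitochondrial carriers exchange metabolites across the inner membrane. Of 14 members 3 fell, 2 rose and 9 did not pass, beside 24.9% lower and 25.1% higher over all genes tested. Their median was -0.07, with a range of -1.35 to 0.82. Slc25a13, the aspartate-glutamate carrier of the malate-aspartate shuttle and urea cycle (chromosome 6, 6041218 to 6217173), was read in full. It had 858, 541 and 684 against 393, 479 and 331 normalized CPM (-0.79, SE 0.20, adjusted p = 0.00997). Slc25a21 fell by 1.35 (10.4 ± 3.14 against 4.11 ± 0.205 normalized CPM). Slc25a25, a calcium-regulated carrier of ATP-Mg and phosphate, fell by 0.87 (229 ± 12.4 against 125 ± 20.9). The carriers that rose were Slc25a32, a carrier of folate and FAD (0.82, SE 0.20, adjusted p = 0.00820, with 10.6% of its row in the gene body), and Slc25a20, the carnitine-acylcarnitine carrier of fatty acid oxidation (0.53, adjusted p = 0.0274). Slc25a20 lost its call without any of 3 libraries, where the adjusted p was 0.0769 to 0.0929.

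Slc25a51, the mitochondrial NAD carrier, was also read in full and did not pass (1142 ± 119 and 958 ± 91.3 normalized CPM, -0.25, adjusted p = 0.137). Slc25a10, the dicarboxylate carrier, stood at 674, 492 and 797 against 501, 461 and 516 normalized CPM (-0.41, adjusted p = 0.0795). Without the second healthy-labelled library, the lowest of its group, Slc25a10 passed at -0.60 (adjusted p = 0.00785). Slc25a30 did not pass (-0.09) and had 212 normalized CPM in the third ARF-labelled library against 112 in both others. Without that library Slc25a30 had -0.46 (adjusted p = 0.0331). Slc25a17, Slc25a28, Slc25a36, Slc25a40, Slc25a43 and Slc25a46 had differences between -0.30 and 0.58 and did not pass.

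Of 3 choline, fatty acid and lipid transporters 2 rose. Slc44a1, the choline transporter of plasma and mitochondrial membranes (chromosome 4, 53440413 to 53622478), was read through all 6676 exon bases. It had 1206, 1119 and 996 normalized CPM in the healthy-labelled and 1763, 2025 and 1746 in the ARF-labelled libraries, a rise of 0.74 (SE 0.13, adjusted p = 0.00163). Slc44a3, a member of the same choline transporter-like family (chromosome 3, 121459528 to 121532404), had 19.2, 15.3 and 17.6 against 56.8, 90.0 and 73.8 normalized CPM (2.07, SE 0.19, adjusted p = 7.8e-05). The fatty acid transporter Slc27a4 did not pass (269 ± 21.0 and 303 ± 31.4 normalized CPM, 0.17, adjusted p = 0.265).

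Of 3 nucleotide sugar transporters, which supply the Golgi with activated sugars, Slc35a1, the carrier of CMP-sialic acid, was read in full and rose by 0.68 (165, 151 and 139 against 241, 261 and 227 normalized CPM, SE 0.11, adjusted p = 0.00131). Slc35d1 was called lower (-0.64, adjusted p = 0.0199), without a call when the third healthy-labelled (adjusted p = 0.0656) or the second ARF-labelled library (0.0661) was left out, and Slc35a3 did not pass (0.12). Of the 8 members on no substrate list, Slc14a2 and the vesicular polyamine transporter Slc18b1 rose (1.47 and 1.09) and Slc6a13 fell. The peptide transporter Slc15a2, the sialic acid exporter Slc17a5, the vesicular monoamine transporter Slc18a2, Slc6a6 and Slc14a1 did not pass. Without the first healthy-labelled library Slc15a2 passed at -0.55 (adjusted p = 0.0176), and without the second Slc17a5 passed at -0.35 (adjusted p = 0.0387).

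Among the 7 members read through all their exons 4 rose, 2 fell and 1 did not pass; the 4 include Slc46a2, which entered through the group where it was high. Over all called members, 46 of 55 kept their call and direction in each of the 6 fits without 1 library (20 higher, 26 lower). The other 9 are Slc16a14, Slc19a2, Slc25a20, Slc30a7, Slc35d1, Slc37a3, Slc38a9, Slc39a9 and Slc5a9. No called member's fold change moved by over 1.5-fold in any of those fits. With scaling by library total alone, 7 members passed that had not, all higher: Slc22a7, Slc24a2, Slc25a40, Slc25a46, Slc27a4, Slc30a5 and Slc7a6. In that setting Slc16a14, Slc30a7 and Slc35d1 no longer passed.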

How the data were processed

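Libraries were made from kidney total RNA (Trizol extraction, TruSeq RNA kit), per the labels' protocols. The deposited files hold 1 count per gene row and library. Per the file headers, featureCounts 2.0.1 counted fragments on exons by gene name, for pairs with both ends aligned, without chimeric pairs and without regard to strand. Bowtie 0.12.2 and mm9 appear in the submitters' processing notes; whether these counts rest on that alignment is not stated. The authors deposited a series table too, with the same counts and a score per library that was not used.

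Row intervals were intersected with exons of GENCODE M21 basic genes on GRCm38 (bedtools 2.31.1, Python 3.11.15, pandas 2.3.3). A gene received a row when it held a share of 0.9 or more of the exon bases overlapped, with a minimum of 25 bases, and its rows were summed. This used 12401 of 53546 rows and 63.0% of the counts. The counts of all genes were tested with edgeR 4.0.16 in R 4.3.3 (quasi-likelihood, TMM, filterByExpr, library totals over all rows, group as the only term, two-sided, Benjamini-Hochberg over 5246 genes, threshold 0.05). The SE is the absolute log2 fold change over the square root of F. DESeq2 1.42.0 was an alternative, beside other scalings, filters, exon minimums, shares, annotations and fits without 1 library. Total counts per library ran from 2873370 to 6191479.

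The members and lists were chosen with earlier results of these data known. Members named with full values are the 8 largest rises and falls, the lowest adjusted p values of each list, the members with the highest levels, the distal, osmolyte, hypoxia and ATF4 lists and the members nearest to no change. Others are named to account for the whole set.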

Additional observations from a re-analysis of the deposited data

How the results depend on the processing

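The counts of 25 members higher and 30 lower stayed within 1.5 times in each alternative but 1: 24 to 32 higher and 27 to 30 lower with other scalings, filters, exon minimums, shares and annotations or with DESeq2, and 21 to 25 higher and 28 to 34 lower without 1 library. With rows that had at least 10% of their bases on the exons, chosen after seeing the data, 59 members could be tested, and 18 were higher and 19 lower; fewer genes enter this setting. Replicate numbers did not pair the libraries: deviations of same-numbered libraries correlated at -0.07, -0.22 and -0.29. With the replicate block 25 members were higher and 30 lower; Slc19a2 and Slc35d1 lost their calls and Slc22a7 and Slc6a15 gained one.

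The direction changed in some alternatives for 9 members, none of them called, and the cause was not tested. Without 1 library, the log2 fold change ran from -0.25 to 0.30 for Slc12a2, -0.38 to 0.36 for Slc16a6, -0.44 to 0.11 for Slc1a3, -0.46 to 0.08 for Slc25a30, -0.03 to 0.32 for Slc38a7, -0.37 to 0.20 for Slc41a3, -0.04 to 0.42 for Slc6a20a, -0.03 to 0.25 for Slc6a6 and -0.19 to 0.11 for Slc9a4. Scaling by library total gave 0.13 for Slc12a2, 0.17 for Slc16a6, 0.08 for Slc25a30, 0.16 for Slc41a3 and 0.17 for Slc9a4. No filter on low counts gave 0.03 for Slc16a6, Slc41a3 and Slc9a4, the replicate block 0.02 for Slc12a2 and 0.04 for Slc41a3, and the rows with 10% on exons -0.36 for Slc6a20a. Depth limits members read at few counts, such as Slc46a2 with 7 and 59 counts. Levels cannot be set between genes because most are read over only part of their exons.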
